A study of Mus musculus with 16 samples.

Results

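The average effect of the PS19 tau transgene was taken from 16 of the 16 libraries of the series, as the mean of the 8 transgenic libraries against the mean of the 8 others, with p16 genotype balanced between the sides. Bulk RNA sequencing was run on hippocampus from female mice aged 8 months. The 4 groups of 4 libraries were wildtype, p16KO (knockout of p16, no transgene), PS19 (transgene, p16 intact) and PS19_p16KO (transgene and knockout). In the PS19 line a mutant human tau is expressed from the mouse prion protein promoter, which is active across the brain and not in the hippocampus alone. The labels do not say whether p16 was removed from all cells, and the strain background is not given in the sources used. The labels do not state that each library of a group is its own animal, so a p-value speaks of the spread among these libraries, which may be technical.

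The transgene effect can be read in 2 arms that share no library, in PS19 against wildtype (the p16-intact arm) and in PS19_p16KO against p16KO (the p16KO arm). Tau binds microtubules in axons, and in tauopathy it becomes hyperphosphorylated and aggregates in neurons. In PS19 mice this is accompanied by activation of microglia, the macrophages of the brain, and of astrocytes. The protein p16 blocks cyclin-dependent kinases and is a marker of senescent cells.

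Gene counts ran from 18485552 to 22311322 per library, and a level in CPM is a count divided by library size after TMM scaling. Cdkn2a, the gene of p16, had 26 counts over the 8 p16-intact libraries and 5 over the 8 knockout libraries (two-sided exact permutation test, p = 0.00326). It had 20 counts over the transgenic and 11 over the other libraries (exact permutation p = 0.347). Each of these sides holds knockout libraries. By group there were 18 counts in PS19 and 8 in wildtype, and 2 in PS19_p16KO and 3 in p16KO. The arms were not tested separately for this gene. Markers of the hippocampus were present in every library, with summed levels of 866 to 1037 CPM for 12 genes of dentate granule cells and 1747 to 2251 CPM for 15 of pyramidal subfields. The summed level of 14 choroid plexus markers, a tissue next to the hippocampus, ran from 56.4 to 973 CPM in wildtype, 62.5 to 3747 in p16KO, 46.5 to 79.9 in PS19 and 47.1 to 6187 in PS19_p16KO. The 3 highest libraries were wildtype replicate 1, p16KO replicate 4 and PS19_p16KO replicate 3.

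The transgenic libraries differed from the others in 64 of 16372 genes, 0.391% of those tested (edgeR's quasi-likelihood test, adjusted p under 0.05). Of these, 60 were higher (0.366%) and 4 were lower (0.0244%), and 1640 genes had an unadjusted p under 0.05. The p16-intact arm alone gave 264 calls (1.61%), and 60 of the 64 were among them. Arsj, Unc5c, Cd83 and Kif5a passed in the average and not in that arm. The p16KO arm gave 3 (0.0183%), which were all among the 64. A called gene is described as alike in both arms where the arms had the same direction, the smaller log2 fold change was at least 0.5 of the larger, and each arm had an unadjusted p under 0.05. By that description 13 genes were alike, 10 higher and 3 lower, and the other 51 were led by the p16-intact arm. No called gene was led by the p16KO arm. Since the classes were cut from the same libraries as the calls, their members are a description.

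**Figure D1:**
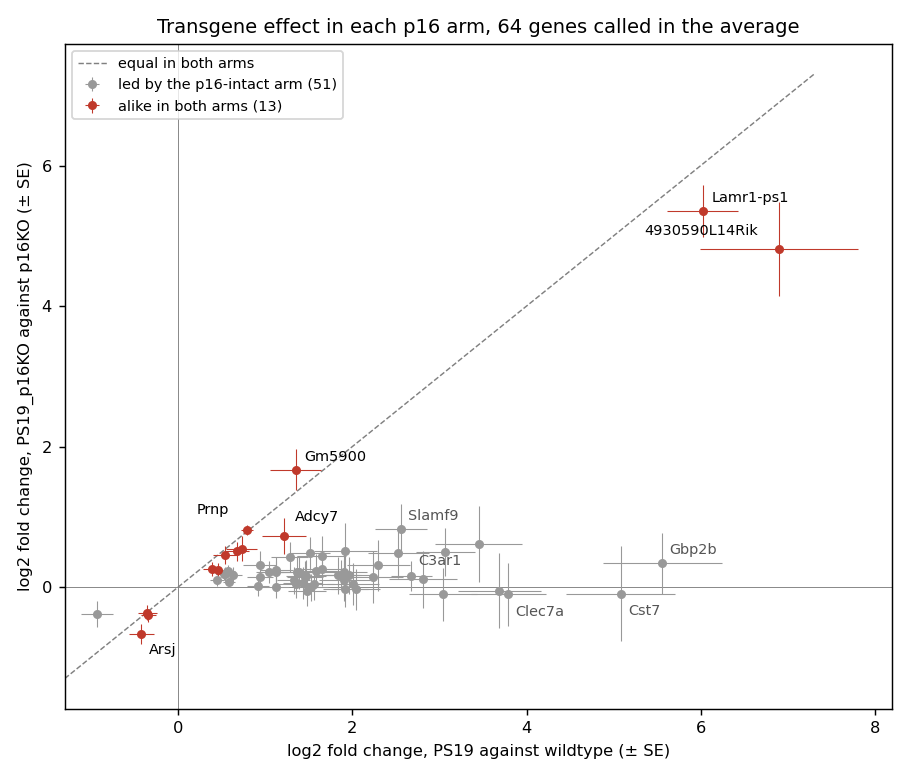
Log2 fold change (± SE) in PS19 against wildtype (horizontal axis) and in PS19_p16KO against p16KO (vertical axis) for the 64 genes called in the average. The 13 genes alike in both arms (red) lie along the dashed line of equal change, and the 51 others (grey) lie near 0 on the vertical axis, with a median of 0.17 there against 1.56 on the horizontal axis.

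For the 13 alike genes the median size was 0.68 log2 units in the p16-intact arm and 0.55 in the p16KO arm. For the 51 others it was 1.56 and 0.17, with 44 of the 51 in the same direction in both arms. These values follow from how the classes were cut and support nothing further. The test of the difference between the arms gave an unadjusted p under 0.05 for 5.44% of all genes. After adjustment over all genes it called 1 gene, C3ar1 (0.00611%).

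Prnp, the mouse gene of the prion protein whose promoter drives the transgene, rose by nearly equal amounts in both arms. Its promoter is printed here because the same control region stands in the transgene, and those of Tifa and Alpk1 because these neighbouring genes on chromosome 3 rose together in the average. The sequences are RefSeq's for GRCm38.p6, 5′ to 3′ on the strand of the gene, and end before the annotated gene start. Prnp is at chr2:131909678-131909927 on the plus strand, Tifa at chr3:127789622-127789804 on the plus strand and Alpk1 at chr3:127780528-127780777 on the minus strand. Capitals mark matches on either strand to TATAAA (the TATA box), to CCAAT (the CCAAT box) and to GGGCGG (the GC box).
Prnp: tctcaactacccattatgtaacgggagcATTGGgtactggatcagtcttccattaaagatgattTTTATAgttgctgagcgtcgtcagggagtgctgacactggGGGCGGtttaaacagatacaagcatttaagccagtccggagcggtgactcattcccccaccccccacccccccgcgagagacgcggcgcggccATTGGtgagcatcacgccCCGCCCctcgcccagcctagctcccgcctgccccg
Tifa: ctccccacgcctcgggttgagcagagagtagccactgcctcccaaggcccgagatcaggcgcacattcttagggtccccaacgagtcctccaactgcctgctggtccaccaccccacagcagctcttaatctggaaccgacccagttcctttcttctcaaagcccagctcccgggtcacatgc
Alpk1: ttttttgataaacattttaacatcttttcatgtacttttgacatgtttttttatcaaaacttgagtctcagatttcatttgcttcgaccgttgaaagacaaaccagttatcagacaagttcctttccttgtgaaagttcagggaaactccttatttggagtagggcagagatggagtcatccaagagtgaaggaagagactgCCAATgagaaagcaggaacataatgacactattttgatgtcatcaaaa
The Prnp window of 250 bases held 1 match to TATAAA, 2 to CCAAT and 2 to GGGCGG. Among 32851 RefSeq promoter windows of that length, 12.4% held TATAAA, 33.8% CCAAT and 32.7% GGGCGG. The Alpk1 window held 1 match to CCAAT, and the Tifa window of 183 bases held none of the 3. A match describes letters only.

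Prnp lay at 1502, 1888 and 1965 CPM in the 8 transgenic libraries (lowest, median and highest) and at 989, 1062 and 1077 CPM in the other 8. All transgenic libraries stood above all others. The average was 1.74-fold higher (log2 0.80 ± 0.05, edgeR adjusted p = 2.16e-09), with log2 0.79 ± 0.07 in the p16-intact arm and 0.81 ± 0.07 in the p16KO arm. The gene occupies chr2:131909928-131938429 in GRCm38. The transgene cassette carries mouse Prnp sequence outside its tau insert, and counts per gene cannot be told apart into transgene and endogenous Prnp reads.

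Lamr1-ps1, a processed pseudogene of the ribosomal protein gene Rpsa, ends 4969 bases before Prnp, at chr2:131904086-131904959. It lay between 2.55 and 3.56 CPM in the transgenic libraries (median 3.15) and between 0 and 0.104 CPM in the others (median 0.0524). The libraries of the sides were far apart. There were 474 counts against 9, a ratio of 54.6 (95% interval 28.5 to 120, counting error only), and edgeR's adjusted p was 1.27e-10. The ratio was 75.9 (25.6 to 371) in the p16-intact arm and 44 (19.9 to 121) in the p16KO arm. Rpsa itself, a near-identical copy with which reads may be shared, had an average log2 fold change of 0.01 ± 0.05.

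Of 8 genes listed for the prion protein locus, 7 were tested and Prnp was the 1 called. The other 6 had average log2 fold changes from -0.02 (Cds2) to 0.09 (Rassf2). Prnd, the gene of the related protein doppel, was listed at 0 in all 16 libraries. Mapt, the mouse tau gene, lay between 477 and 598 CPM in the transgenic libraries and between 464 and 558 CPM in the others. These ranges overlap, and the log2 fold change was 0.05 ± 0.04 (edgeR adjusted p = 0.75).

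**Figure D2:**
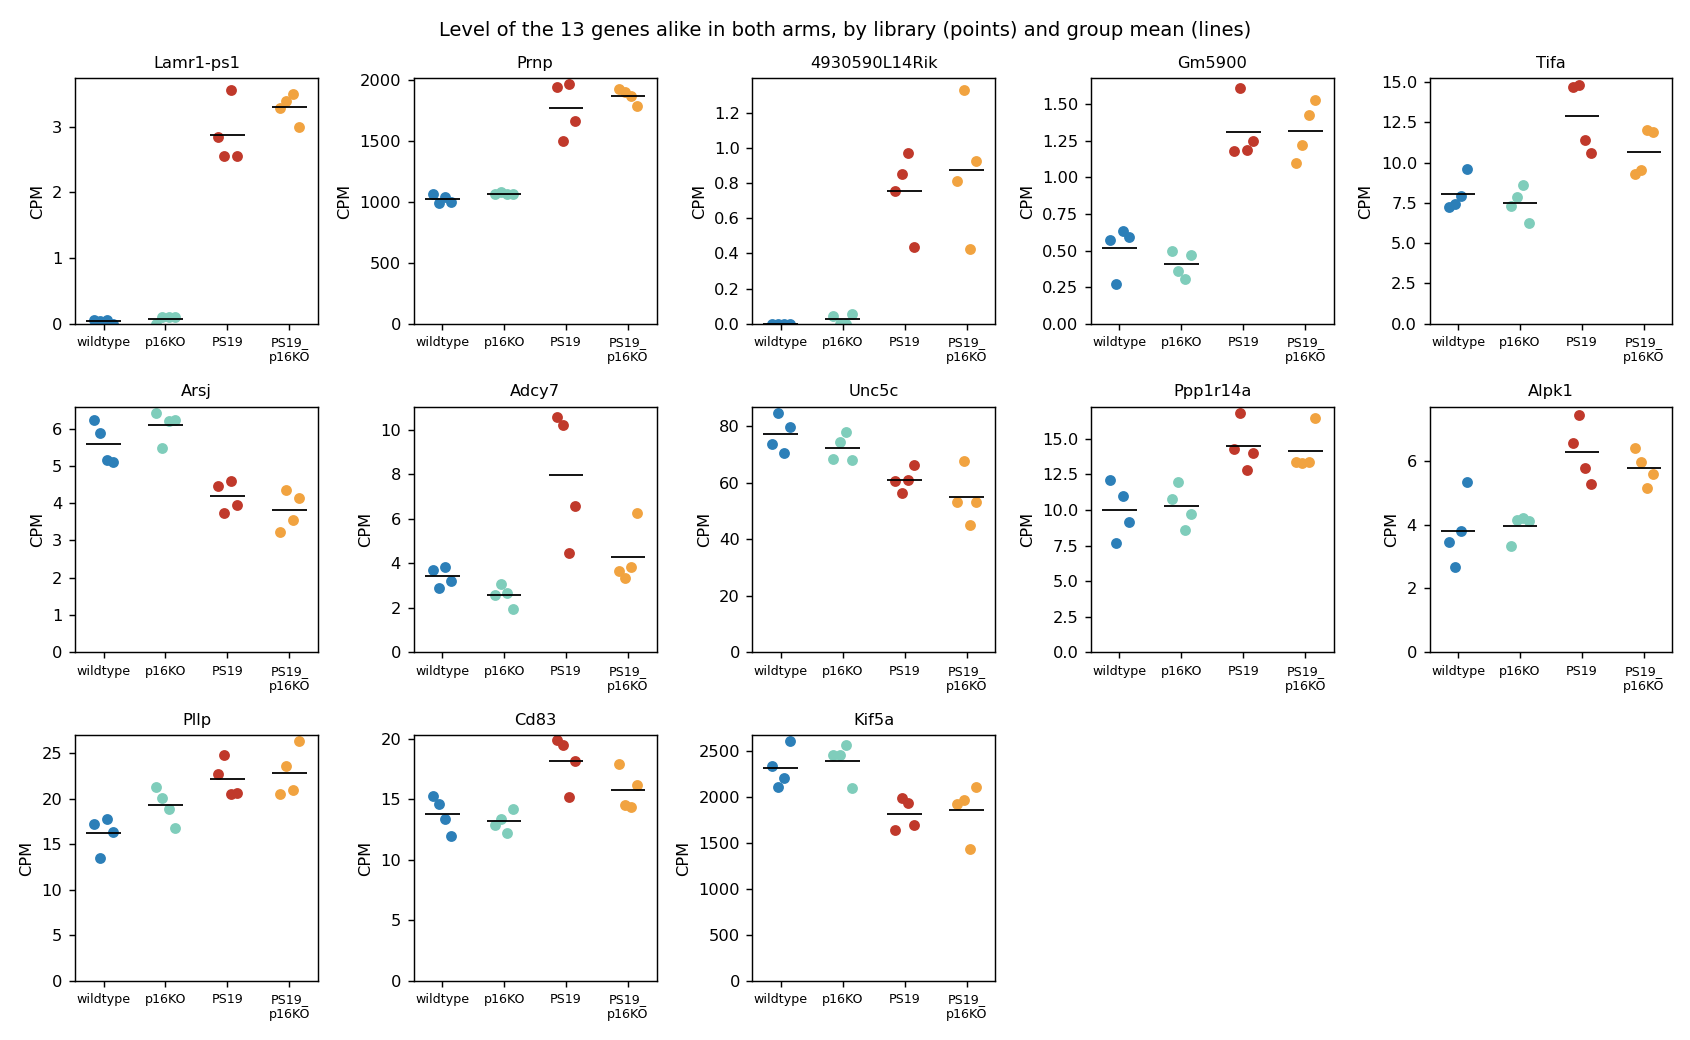
CPM of the 13 genes alike in both arms, 1 panel per gene with its own linear axis from 0, 1 point per library and a line at each group's mean. In the panels of Prnp, Lamr1-ps1, 4930590L14Rik, Gm5900, Arsj, Unc5c and Ppp1r14a the 8 transgenic libraries do not overlap with the 8 others.

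Chromosome 3 held 5 of the 13 alike genes, among 842 genes tested there. All 5 lay between 120 and 150 Mb, a stretch chosen after the values were seen. Of 139 genes tested in it 7 were called (5.04%), and 6 had an unadjusted p under 0.05 in both arms in the same direction (4.32%). Of all 16233 other genes 57 were called (0.351%) and 65 passed in both arms (0.4%). Published mapping has placed the insertion of the PS19 transgene on this chromosome. Whether nearness to the insertion has a part in these calls was not tested.

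4930590L14Rik, a long noncoding RNA at chr3:140951876-140953247, had no count in any wildtype library. It lay at 0.754, 0.854, 0.971 and 0.434 CPM in PS19 replicates 1 to 4 and at 0.811, 1.33, 0.424 and 0.928 CPM in PS19_p16KO replicates 1 to 4. Every transgenic library was above every other library, the highest of which was at 0.0521 CPM. With 58 counts against 0, PS19 was at least 20-fold higher than wildtype (floor of 3 counts over the group). With 67 counts against 2, PS19_p16KO was 34.8-fold higher than p16KO (95% interval 9.26 to 293, counting error only). The average passed edgeR's test at an adjusted p of 4.86e-05.

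Tifa and Alpk1 lie head to head, 9278 bases apart, at chr3:127789805-127832164 and chr3:127670310-127780527. Alpk1 is a kinase that senses a bacterial sugar, and Tifa is the adaptor that carries its signal to NF-κB. Tifa lay at 9.3, 11.7 and 14.8 CPM in the transgenic libraries (lowest, median and highest) and at 6.25, 7.63 and 9.61 CPM in the others. The ranges touched only through wildtype replicate 4, the highest of the others, which was above the lowest 2 transgenic libraries. Tifa rose 1.51-fold (log2 0.59 ± 0.10, edgeR adjusted p = 0.00814), with log2 0.68 ± 0.14 and 0.51 ± 0.14 in the arms.

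Alpk1 lay at 5.14, 5.86 and 7.45 CPM in the transgenic and at 2.66, 3.96 and 5.32 CPM in the other libraries. Here too wildtype replicate 4 was the library of overlap. Alpk1 rose 1.55-fold (log2 0.64 ± 0.13, edgeR adjusted p = 0.0274), with log2 0.73 ± 0.18 and 0.55 ± 0.18 in the arms. It was called in 6 of the 16 fits that leave out 1 library, where Tifa was called in all 16.

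The other alike genes of the stretch fell. Arsj, an arylsulfatase gene at chr3:126363684-126440375, lay at 3.24, 4.06 and 4.59 CPM in the transgenic libraries and at 5.1, 6.05 and 6.43 CPM in the others. The sides did not overlap, and the average stood at 68.5% of the nontransgenic level (log2 -0.55 ± 0.10, edgeR adjusted p = 0.0156). The log2 fold change was -0.42 ± 0.14 in the p16-intact and -0.67 ± 0.14 in the p16KO arm, neither of which was called in its own arm.

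Unc5c, a netrin receptor that guides axons, at chr3:141465216-141834924, lay at 45.1, 58.6 and 67.7 CPM in the transgenic and at 68.2, 74.1 and 84.9 CPM in the other libraries. The sides came close and did not overlap. The average stood at 77.4% (log2 -0.37 ± 0.07, edgeR adjusted p = 0.0181), with log2 -0.34 ± 0.09 and -0.40 ± 0.09 in the arms.

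Called genes of the same stretch that were led by the p16-intact arm were 1110002E22Rik and Gbp2b. 1110002E22Rik stood at 63.5% on average (edgeR adjusted p = 0.0258), with log2 -0.93 ± 0.18 in the p16-intact and -0.38 ± 0.18 in the p16KO arm. Gbp2b, an interferon-inducible GTPase gene, lay at 0, 0, 0 and 0.161 CPM in wildtype replicates 1 to 4, between 0.781 and 1.8 CPM in p16KO, between 0.978 and 3.72 CPM in PS19 and between 1.15 and 1.91 CPM in PS19_p16KO. The low group was wildtype alone, and p16KO overlapped with both transgenic groups. Its average call (log2 2.95 ± 0.42, edgeR adjusted p = 0.00208) joined log2 5.56 ± 0.68 in the p16-intact and 0.34 ± 0.43 in the p16KO arm. The wildtype libraries held 3 counts against 161 in PS19, a ratio of 55.6 (95% interval 18.7 to 272, counting error only), so the fitted fold of that arm depends on the prior count.

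**Figure D3:**
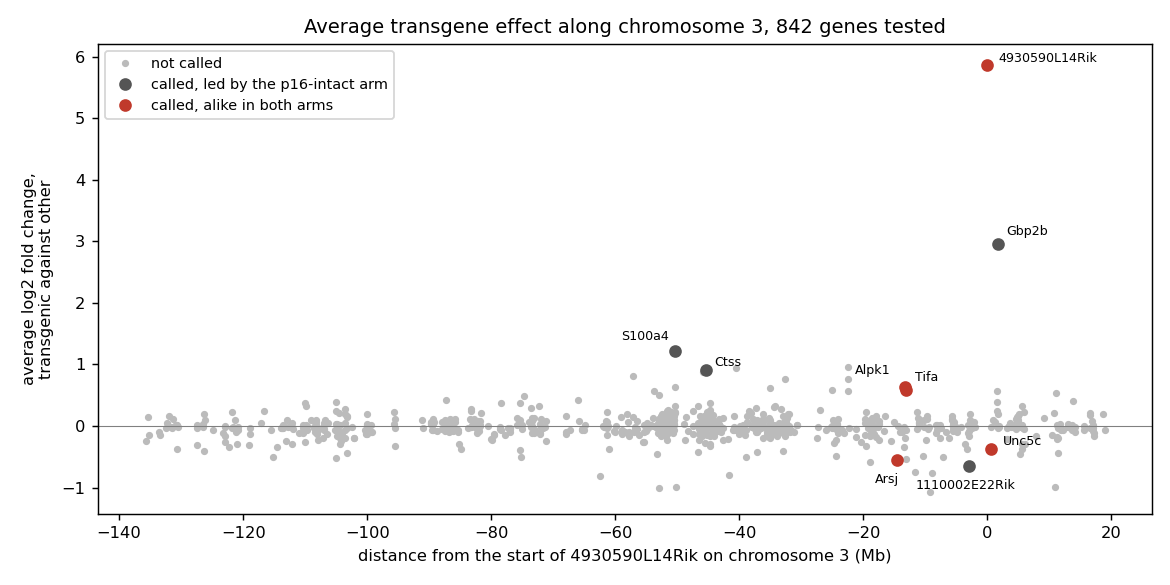
Average log2 fold change of the 842 genes tested on chromosome 3 against their distance in Mb from the start of 4930590L14Rik, with called genes enlarged and named. The 5 alike genes (red) and 2 of the 4 other called genes (dark grey) sit between -14.6 Mb (Arsj) and 1.64 Mb (Gbp2b), with Ctss and S100a4 farther away.

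The remaining 6 alike genes lay on chromosomes 7, 8, 10 and 13. Gm5900, annotated as a processed pseudogene at chr7:104949915-104950289, lay at 1.1, 1.24 and 1.61 CPM in the transgenic libraries and at 0.27, 0.482 and 0.633 CPM in the others. The sides did not overlap. It rose 2.85-fold (log2 1.51 ± 0.21, edgeR adjusted p = 0.00126), from 202 counts against 73, with log2 1.35 ± 0.29 and 1.67 ± 0.29 in the arms. As with Lamr1-ps1, reads of near-identical copies may be shared.

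Adcy7, an adenylyl cyclase that makes cyclic AMP, lay at 10.6, 10.2, 4.48 and 6.57 CPM in PS19 replicates 1 to 4 and between 2.88 and 3.85 CPM in wildtype. It lay at 3.63, 3.35, 3.82 and 6.28 CPM in PS19_p16KO replicates 1 to 4 and between 1.93 and 3.07 CPM in p16KO. Within each arm the transgenic libraries stood above the others, while across arms PS19_p16KO overlapped with wildtype. The average was 1.97-fold higher (log2 0.98 ± 0.18, edgeR adjusted p = 0.0181), with log2 1.22 ± 0.25 and 0.73 ± 0.26 in the arms.

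Cd83, a surface protein of activated antigen-presenting cells, lay at 14.4, 17.1 and 19.9 CPM in the transgenic and at 12, 13.4 and 15.3 CPM in the other libraries, and these overlapped. It rose 1.25-fold (log2 0.33 ± 0.07, edgeR adjusted p = 0.0469), with log2 0.39 ± 0.10 and 0.26 ± 0.10 in the arms. Neither Adcy7 nor Cd83 stood in the microglial lists used here, and none of the 13 alike genes did. These lists held only 61 of all 16372 genes tested, so absence from them does not say whether a gene is microglial. The summed level of 14 general microglial markers ran from 273 to 309 CPM in wildtype, 367 to 726 in PS19, 289 to 332 in p16KO and 312 to 348 in PS19_p16KO. The ranges were apart in the p16-intact arm and overlapped in the p16KO arm. Its part in Adcy7 and Cd83 was not tested.

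Ppp1r14a and Pllp rose in the average. Ppp1r14a, an inhibitor of myosin phosphatase, lay at 12.8, 13.7 and 16.8 CPM in the transgenic and at 7.7, 10.3 and 12.1 CPM in the other libraries, without overlap. It rose 1.41-fold (log2 0.50 ± 0.10, edgeR adjusted p = 0.0237), with log2 0.54 ± 0.14 and 0.46 ± 0.13 in the arms. Pllp, which encodes the myelin membrane protein plasmolipin, lay at 20.5, 21.8 and 26.3 CPM against 13.5, 17.4 and 21.3 CPM. Only p16KO replicate 1 reached into the transgenic range. Pllp rose 1.27-fold (log2 0.35 ± 0.07, edgeR adjusted p = 0.0332), with log2 0.46 ± 0.10 and 0.24 ± 0.10 in the arms.

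Of 16 genes on the oligodendrocyte and myelin list none was called, 10 had an unadjusted p under 0.05 with a positive average, and all 16 averages were above 0. Of all 16372 genes, 64 were called, 1023 had an unadjusted p under 0.05 with a positive average and 8372 had a positive average. The median was log2 0.31 in the p16-intact and 0.08 in the p16KO arm, beside -0.01 and 0.00 for all genes. Opalin, a transmembrane protein of oligodendrocytes, was the member that had an unadjusted p under 0.05 in both arms (log2 0.37 ± 0.11 and 0.29 ± 0.11, edgeR adjusted p of the average 0.0632). The summed level of the list ran from 2877 to 4164 CPM in wildtype, 3739 to 4241 in p16KO, 3632 to 4818 in PS19 and 3675 to 4717 in PS19_p16KO. The p16KO libraries thus stood within the transgenic range, and the part of this sum in Ppp1r14a and Pllp was not tested.

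Kif5a, the neuronal heavy chain of the motor kinesin-1 that moves cargo along axonal microtubules, lay at 1428, 1929 and 2112 CPM in the transgenic and at 2100, 2394 and 2611 CPM in the other libraries. PS19_p16KO replicate 4 was the single transgenic library that reached the range of the others. It fell to 78.1% (log2 -0.36 ± 0.07, edgeR adjusted p = 0.0487), with log2 -0.35 ± 0.11 and -0.36 ± 0.11 in the arms. Its paralogues were looked at after this value was seen. Kif5c had log2 -0.14 ± 0.04 (unadjusted p = 0.00245, edgeR adjusted p = 0.179), alike in the arms at -0.13 and -0.16, and Kif5b had -0.03 ± 0.04. On the list of 15 tau and microtubule proteins none was called, and the medians were -0.05 and 0.00 in the arms. With 0.391% of all genes called, the lack of a call does not set a list of this size apart.

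Just outside the threshold of the average lay Renbp, the renin-binding protein gene, at an adjusted p of 0.0507 (edgeR), with log2 0.92 ± 0.23 and 0.58 ± 0.23 in the arms and no overlap between 3.05 to 5.87 CPM and 1.5 to 2.9 CPM. Just inside the ratio of 0.5 between the arms were Pllp (0.53) and Adcy7 (0.60). Just outside was 1110002E22Rik (0.41).

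Without any model, 11 genes (0.0672% of those tested) had no overlap between the 8 transgenic and the 8 other libraries, 7 above (0.0428%) and 4 below (0.0244%). Among the 13 alike genes these were 7: Lamr1-ps1, Prnp, 4930590L14Rik, Gm5900, Arsj, Unc5c and Ppp1r14a. None of the 51 genes led by the p16-intact arm was among them, which the way the classes were cut largely fixes. Across all genes, 71 (0.434%) had an unadjusted p under 0.05 in both arms in the same direction, 41 higher and 30 lower, and 15 (0.0916%) did so in opposite directions. The 41 were 3.68% of the 1114 genes higher in the p16-intact arm, beside 1.86% of all genes higher in the p16KO arm. They were 13.4% of the 305 genes higher in the p16KO arm, beside 6.8% of all genes. The 30 lower genes were 6.62% of 453 and 10.2% of 293, beside 1.79% and 2.77%.

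Of the 51 genes led by the p16-intact arm, 12 stood in the microglial lists, beside 61 of all 16372 genes tested. Clec7a, a receptor for fungal glucans and a marker of disease-associated microglia, lay at 23.3, 22.4, 4.86 and 12.8 CPM in PS19 replicates 1 to 4, between 0.886 and 1.49 in wildtype, between 1.44 and 1.75 in p16KO and between 0.874 and 2.12 in PS19_p16KO. PS19 alone was high, with replicate 3 the lowest, and PS19_p16KO overlapped with both nontransgenic groups. Its average call (log2 1.84 ± 0.31, edgeR adjusted p = 0.0181) joined log2 3.79 ± 0.43 and -0.10 ± 0.45. In bulk tissue, more cells of a type and more RNA per cell cannot be told apart.

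C3ar1, the receptor of the complement fragment C3a, lay between 4.48 and 9.25 CPM in PS19, 0.896 and 1.23 in wildtype, 1.74 and 2.24 in p16KO and 1.72 and 2.7 in PS19_p16KO. Its arms differed by log2 -2.52 ± 0.32 (p16KO arm minus p16-intact arm, edgeR adjusted p = 0.00248), the single call of that test. Gfap, the intermediate filament of astrocytes, lay at 2750, 2173, 898 and 1680 CPM in PS19 replicates 1 to 4 and between 596 and 651 CPM in PS19_p16KO, beside 448 to 600 in wildtype and 476 to 684 in p16KO. The PS19_p16KO libraries lay within the nontransgenic range. The log2 fold changes were 1.84 ± 0.26 and 0.17 ± 0.26, and the average passed at an adjusted p of 0.037 (edgeR).

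By the average log2 fold change the 8 leading rises of this class, predicted genes left out, were Gbp2b, Cst7, Ly9, Clec7a, Cd22, Ccl6, Slamf9 and Lag3. Slamf9, an immune surface receptor, had the largest p16KO arm of the 8, at log2 0.83 ± 0.35 against 2.56 ± 0.30. It lay between 0.372 and 0.901 CPM in PS19_p16KO and between 0.307 and 0.469 in p16KO, which overlap. Stat3, a transcription factor of cytokine signalling, was among the 10 smallest adjusted p-values (edgeR, 0.00253) with log2 0.59 ± 0.07 and 0.07 ± 0.07. Dock2, a guanine exchange factor of immune cells, had log2 1.87 ± 0.21 and 0.18 ± 0.21 (edgeR adjusted p of the average 0.00211).

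**Figure D4:**
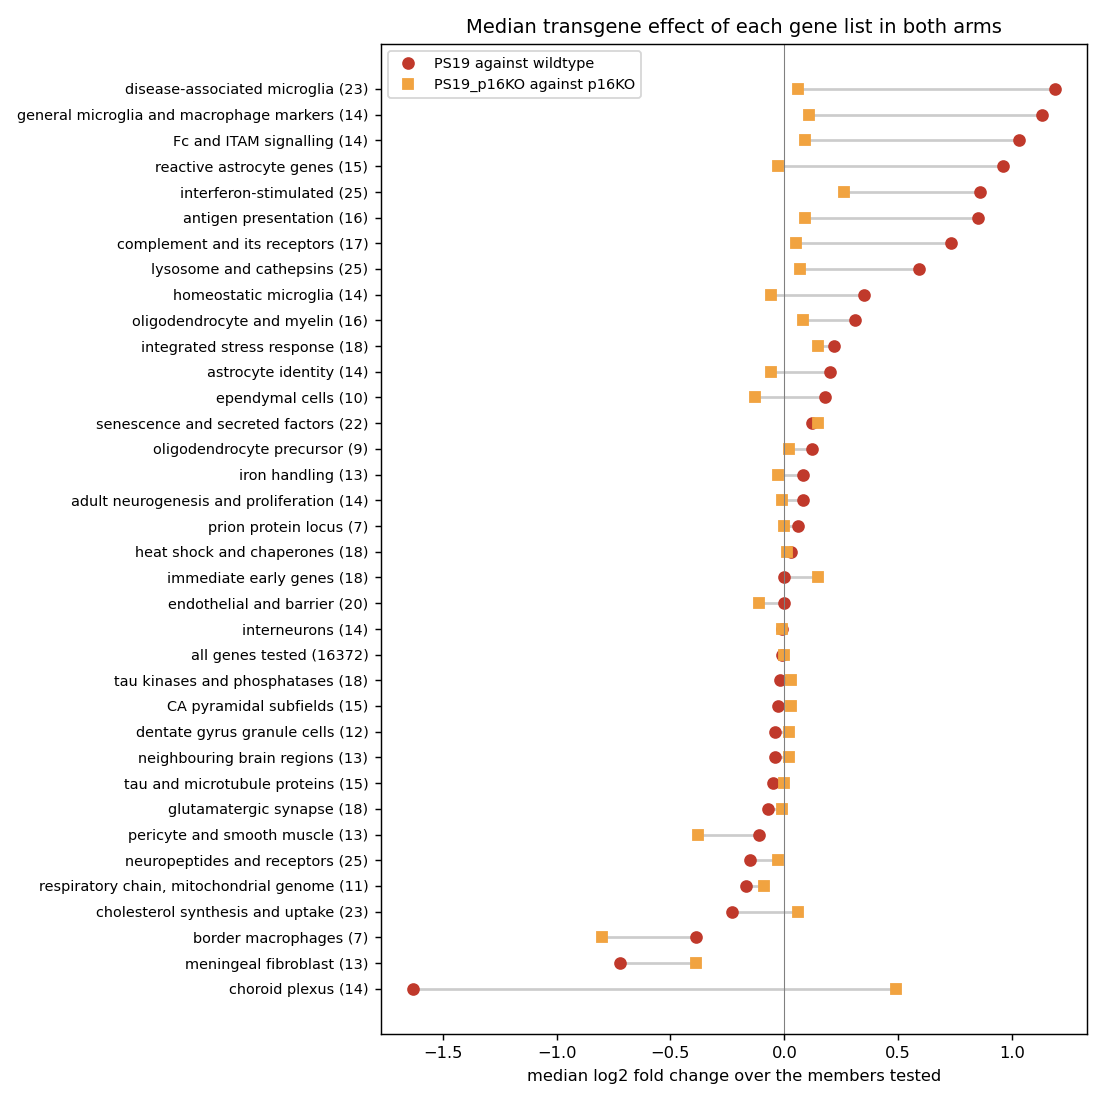
Median log2 fold change over the tested members of each gene list (number tested in brackets) in PS19 against wildtype (red circles) and in PS19_p16KO against p16KO (orange squares). Lists of microglia, complement and reactive astrocytes stand at 0.35 to 1.19 in the first and at -0.06 to 0.11 in the second, and the choroid plexus list, whose level differs between single libraries, stands at -1.63 and 0.49.

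On the list of disease-associated microglia 6 of 23 genes rose in the average (Ccl6, Tyrobp, Clec7a, Cd52, Cst7 and Cd68), with arm medians of log2 1.19 and 0.06. Of the general microglial markers 5 of 14 rose (medians 1.13 and 0.11), while 0 of 14 homeostatic microglial genes were called (0.35 and -0.06). Complement genes rose in 3 of 17 (0.73 and 0.05), Fc and ITAM signalling genes in 3 of 14 (1.03 and 0.09), lysosomal genes in 4 of 25 (0.59 and 0.07) and reactive astrocyte genes in 3 of 15 (0.96 and -0.03). These counts stand beside 60 of 16372 genes that rose in all (0.366%). None of the members of these lists had an unadjusted p under 0.05 in both arms.

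Interferon-stimulated genes had the highest median of the p16KO arm among the immune lists, at log2 0.26 beside 0.86 in the p16-intact arm. Ifit3b was the 1 called of 25 (log2 1.28 ± 0.21 and 0.43 ± 0.21, edgeR adjusted p of the average 0.0156), and all 25 averages were above 0. On the list of the integrated stress response, the programme by which cells slow translation and induce Atf4, none of 18 was called. Its arm medians, 0.22 and 0.15, were close to each other, and 16 of 18 averages were above 0. Averages above 0 made up 8372 of all 16372 genes, and 0.391% of all genes were called. Slc7a5, an amino acid transporter on that list, had log2 0.40 ± 0.10 and 0.18 ± 0.10 (edgeR adjusted p of the average 0.0762).

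Lists of synapses, granule cells, pyramidal subfields and interneurons had 0 calls and medians from -0.07 to 0.03 in both arms. With 0.391% of all genes called, the lack of a call does not set lists of this size apart. Over all genes the median average log2 fold change was 0.003. Border macrophage genes had no call, and 7 of 7 averages were below 0 (medians -0.39 and -0.80). This was not particular to them. Meningeal fibroblast genes had no call and 1 of 13 averages above 0 (medians -0.72 and -0.39). Pericyte and smooth muscle genes had no call and 2 of 13 averages above 0 (medians -0.11 and -0.38). Of all 16372 genes, 8372 had an average above 0. The choroid plexus list had no call either, with medians of -1.63 and 0.49 in the arms. Of the 3 libraries with high levels named above, none belonged to the p16-intact transgenic group.

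The number of calls moved with single libraries. Without PS19 replicate 3 it was 206, and without p16KO replicate 3 it was 15. It was 34, 21, 33 and 33 without wildtype replicates 1 to 4, and 39, 24 and 24 without p16KO replicates 1, 2 and 4. Leaving out PS19 replicates 1, 2 and 4 gave 46, 25 and 66. Leaving out PS19_p16KO replicates 1 to 4 gave 21, 52, 34 and 41. Lamr1-ps1, Prnp, 4930590L14Rik, Gm5900, Tifa and Arsj were called in all 16 of these fits. Adcy7 was lost without wildtype replicate 2, PS19 replicate 2 and p16KO replicates 3 and 4. Unc5c was called in 11 of the 16, Ppp1r14a in 9, Pllp in 5, Kif5a in 3 and Cd83 in 1, the fit without PS19 replicate 3. Of the 51 other genes 9 were called in all 16, and the median gene was called in 5, where the median alike gene was called in 12. The classes were cut from the same libraries, so this difference between them supports nothing further.

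**Figure D5:**
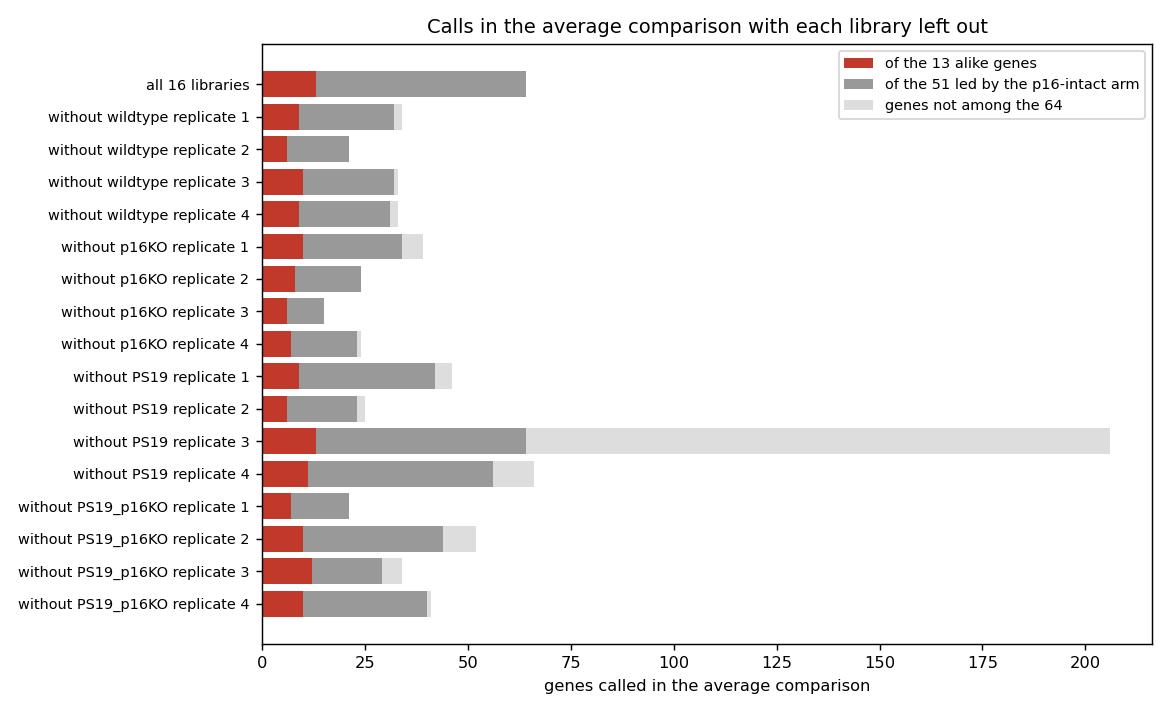
Genes called in the average comparison with all 16 libraries and with each library left out (horizontal axis, number of genes), divided into the 13 alike genes (red), the 51 led by the p16-intact arm (dark grey) and genes outside the 64 (light grey). Without PS19 replicate 3 the bar reaches 206, and without p16KO replicate 3 it reaches 15.

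With p16 genotype as an additive block and no interaction term, 11 genes were called, 9 higher and 2 lower. They held 9 of the 13 alike genes and 2 of the 51 others, among them Slamf9. The alike genes that missed the threshold there were Alpk1 (edgeR adjusted p = 0.063), Kif5a (0.109), Pllp (0.123) and Cd83 (0.137). With p16 genotype ignored 6 genes were called, all of them alike genes. Both fits count a difference between the arms as spread. The split of their calls between the classes is therefore largely fixed by how the classes were cut, and supports nothing further. Without the 3 libraries richest in choroid plexus 31 were called, of which 8 were alike genes, and Tifa (adjusted p = 0.0614), Arsj (0.0954), Adcy7 (0.0958), Alpk1 (0.0915) and Pllp (0.0887) missed the threshold.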

How the data were processed

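Hippocampal RNA of 16 libraries was analysed. The authors deposited raw counts per gene in one table, with 49671 rows of genes and 92 of ERCC spike-ins. The latter held 0.574% to 1.06% of a library's counts and were left out. The build GRCm38 and the tools STAR 2.5.2b, Trimmomatic 0.36, Subread 1.5.2, featureCounts and DESeq2 stand in the submitters' processing notes. Not given in the sources used here are the role and order of the tools, the strand setting and the annotation release, so overlapping or antisense genes may hold each other's reads. Symbols and coordinates of 49412 rows came from GENCODE by Ensembl ID.

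Counts were tested with edgeR 4.0.16 in R 4.3.3: filterByExpr with a minimum count of 10, TMM, a robust quasi-likelihood fit with one mean per group, and Benjamini-Hochberg adjustment over 16372 genes at 0.05. The contrasts were the average, each arm and the difference of the arms. The procedure was tested on simulated counts in which the changed genes changed alike in both arms. Genes that differ between the arms were not simulated, so that test does not cover them. Fitted fold changes of genes near 0 depend on the prior count, so count ratios are given for these. Intervals and floors (3 counts) cover counting error only. Gene lists, of which there were 37, were described by counts and medians with no test.

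The members and lists were chosen with earlier results of these data known. Named genes are Cdkn2a, Mapt and Prnp. With predicted models left out and a mean log2 CPM above 0, they are also called genes: up to 12 rises and falls of the alike class and up to 8 of the class led by the p16-intact arm. They are also the 10 smallest adjusted p-values, the 10 widest gaps between libraries that do not overlap, up to 4 called members of each list and every called gene of a chromosome window described. Renbp, Kif5b, Kif5c, Rpsa, Opalin, the uncalled members of lists and the genes of the last section were chosen after their values were seen. A withheld gene is not reported here.

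Alternatives were DESeq2 1.42.0, limma-voom (limma 3.58.1), RLE scaling, no filter, CPM above 1 in 4 libraries, additive p16 block, p16 ignored, the leading digit of the suffix in library names as batch, replicate block, 1 surrogate variable (sva 3.50.0), no robust dispersion, a minimum fold of 1.2, leaving out each library, leaving out the 3 libraries richest in choroid plexus markers, and the score of these markers as covariate.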

Additional observations from a re-analysis of the deposited data

Results flagged for a closer look

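In 41 named genes the 4 libraries of each group were searched for a value standing apart from the other 3, by a criterion that chance meets in about 1 in 20 groups. There were 18 such values in 164 combinations of gene and group. Among alike genes, PS19_p16KO replicate 4 stood above its group in Adcy7 (6.28 CPM, the others at 3.35 to 3.82) and in Ppp1r14a (16.5 CPM, the others at 13.3 to 13.4). Alpk1 was low in p16KO replicate 1 (3.33 CPM). Gm5900 was low in wildtype replicate 2 (0.27 CPM) and high in PS19 replicate 2 (1.61 CPM). Lamr1-ps1 was at 0 in wildtype replicate 4 and in p16KO replicate 1, where the others had 1 to 2 counts.

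Among the other genes, p16KO replicate 1 was high in Clec7a (1.75 CPM) and Tyrobp (7.51 CPM), and p16KO replicate 4 was high in Slamf9 (0.469 CPM) and at 0 in Cdkn2a. In wildtype, replicate 4 was high in Gbp2b (0.161 CPM) and Cd52 (0.644 CPM), replicate 2 was high in Ccl6 (1.35 CPM), and replicate 3 was low in C3ar1 (0.896 CPM) and Laptm5 (30.4 CPM). PS19 replicate 1 was high in 1110002E22Rik (3.02 CPM) and PS19_p16KO replicate 3 in Ctsa (91.7 CPM). PS19 replicate 3, the library that moves the number of calls most, had none of these values.

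The transgene effect on C3ar1 differed between the arms by log2 -2.52 (p16KO arm minus p16-intact arm), in edgeR's test of the difference itself.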

How the results depend on the processing

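The average gave 64 calls with all libraries and 15 to 206 with 1 library left out. The p16-intact arm ranged over 124 to 438 there, the p16KO arm over 2 to 5, the difference of the arms over 1 to 160, alike genes over 6 to 19, genes led by the p16-intact arm over 9 to 185 and genes passing in both arms over 43 to 120. Average calls were 150 with 1 surrogate variable, 179 with DESeq2, 149 with the choroid plexus score as covariate, 18 with the library-name suffix as batch, 28 with limma-voom, 9 with a minimum fold of 1.2, 11 with the additive p16 block, 6 with p16 ignored and 31 without the 3 choroid-rich libraries. Higher genes made up 93.8% of calls, against 82.1% with limma-voom (23 of 28), 81.8% with the additive block and 83.3% with p16 ignored. Alike genes numbered 39 with the surrogate variable, 34 with DESeq2, 41 with the covariate, 6 with the suffix and 21 without a filter. Those led by the p16-intact arm numbered 109, 141, 105 and 12 under the first 4 of these, 15 with limma-voom and 22 without the choroid-rich libraries. Genes passing in both arms numbered 136 with the surrogate variable and 133 with the covariate. The p16KO arm gave 6, 7 and 6 calls with the surrogate variable, DESeq2 and the covariate, and 5 with limma-voom. The difference of the arms gave 7, 88 and 5 with these 3, 6 with RLE, 13 with the suffix, 20 without a filter and 2 without robust dispersion. The cause was not tested. The median average log2 fold change over all genes, 0.003, lay between -0.003 and 0.004 under the alternatives. Of the named genes Rpsa, which was not called, changed sign under 5 alternatives (0.01 against -0.02 to -0.01), and the others kept theirs. Of 1944 pairs of named gene and alternative, 1435 kept the call, 457 lost it and 52 gained it.

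With the replicate number as a block the average gave 62 calls and the difference of the arms 5. The numbers are not shown to pair samples: deviations of same-numbered libraries correlated at -0.388 to 0.223 (24 pairs), and others at -0.331 to 0.558 (72 pairs).

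Genes such as 4930590L14Rik, with 2 counts over the nontransgenic libraries, have wide intervals at this depth.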

Other observations

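Below the threshold of the average, further genes had an unadjusted p under 0.05 in both arms in the same direction, named here after their values were seen. Sqstm1, a receptor of selective autophagy, lay at 453 to 508 CPM in the transgenic libraries and at 420 to 454 CPM in the others, with log2 0.11 and 0.13 in the arms (edgeR adjusted p of the average 0.144). Pink1, a kinase of mitochondrial quality control, had log2 0.13 and 0.11 (adjusted p = 0.173) with 366 to 416 CPM against 320 to 396 CPM, which overlap more widely.

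Lower in both arms were Apc, a scaffold of Wnt signalling that also binds microtubules (log2 -0.20 and -0.27, edgeR adjusted p = 0.109), Pak3, a kinase of dendritic spines (-0.17 and -0.12, adjusted p = 0.0825), and the imprinted noncoding RNA Rian (-0.19 and -0.14, adjusted p = 0.0705). Apc lay at 196 to 276 CPM against 276 to 346 CPM. S100a9, a calcium-binding protein of neutrophils, lay at 0.109 to 0.583 CPM against 0.495 to 1.04 CPM, from 61 counts against 126, with log2 -1.03 and -0.95 (adjusted p = 0.173). None of these 6 genes was called.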
